A study of Mus musculus with 6 samples.

Results

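The genes described here form the growth hormone and insulin-like growth factor I (IGF-I) axis of the liver. They were chosen by name and comprise Ghr, Stat5b, Socs2, Cish, Igf1, Igfals, Igfbp1, Igfbp2, Igfbp3 and Igfbp4. All 10 had a row in the deposited table of 35977 genes, and all 10 passed the filter on low counts that left 14374 genes to test. Bulk RNA was sequenced from mouse liver in 2 groups of 3 libraries. The first group, called Cre, received AAV9-Tnnt2-Cre, an adeno-associated viral vector in which Cre recombinase stands behind the promoter of Tnnt2, the cardiac troponin T gene. The second, called Cre-miR122, received the same vector with added target sites for the hepatocyte microRNA miR-122. All 6 livers thus carried a Cre vector, and no uninjected liver was analysed here. The labels number the Cre libraries 10, 11 and 12 and the Cre-miR122 libraries 1, 2 and 4. They give no strain, age, sex, dose, time after injection, feeding state or hour of collection. Nor do they tie each library to its own animal, so the p-values measure only the spread between these samples, which may be partly technical.

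Growth hormone from the pituitary binds its receptor on hepatocytes and activates the kinase JAK2, which phosphorylates the transcription factor STAT5B. STAT5B induces the gene of IGF-I, the hormone that carries much of the growth signal, and the genes of the feedback inhibitors SOCS2 and CIS. In blood, IGF-I travels in complexes with IGF binding proteins, and the acid-labile subunit encoded by Igfals locks IGF-I and IGFBP-3 into a long-lived complex. Hepatic Igfbp1 is repressed by insulin and follows fasting and feeding.

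Total counts ran from 20340994 to 20817837 per library, and the lowest count of any of the 10 genes was 447 (Cish in Cre-miR122 replicate 4), a counting error of 4.73%. Cre replicate 10 stood apart in its sex-linked genes, with 5 counts of Xist and 1676 of Ddx3y, while the other libraries had at least 15778 counts of Xist and at most 1 of Ddx3y. Growth hormone secretion differs between the sexes in mice, so some of the values that moved without this library are given with and without it. The Cre transcript itself was at 2.40 ± 0.589 CPM (counts relative to the scaled library total) in the Cre group against 0.619 ± 0.146 CPM in the other (SD, n = 3 each). The tissue label was met by hepatocyte markers: 10 of 10 were detected, with a summed level of 151200 to 184300 CPM with Cre and 179400 to 183900 CPM with Cre-miR122. Of 10 heart and skeletal muscle markers, Myh7, Actc1 and Myl2 had no count in any library, and the summed level of the list lay between 0.823 and 2.94 CPM.

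Across the axis, none of the 10 genes passed the test of a difference between the vectors, and the clearest contrast was in Igfals, which was lower in every Cre-miR122 library than in every Cre library. The edgeR quasi-likelihood test called 0 of the 10 genes at an adjusted p under 0.05, where the share of all genes called was 0%. DESeq2 and limma-voom also called 0 of the 10. At an unadjusted p under 0.05 there was 1 of the 10, Igfals, where the share of all genes tested was 5.41%, or 2.65% for lower values alone. Groups did not overlap for 1 of the 10, again Igfals, where the share of all genes was 11.1%, or 5.45% for lower values alone. Of the 10 log2 fold changes (Cre-miR122 minus Cre) 4 lay above 0 and 6 below, with a median of -0.066 beside -0.0029 for all genes tested. In bulk tissue, fewer cells of a type and less RNA per cell cannot be told apart.

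**Figure D1:**
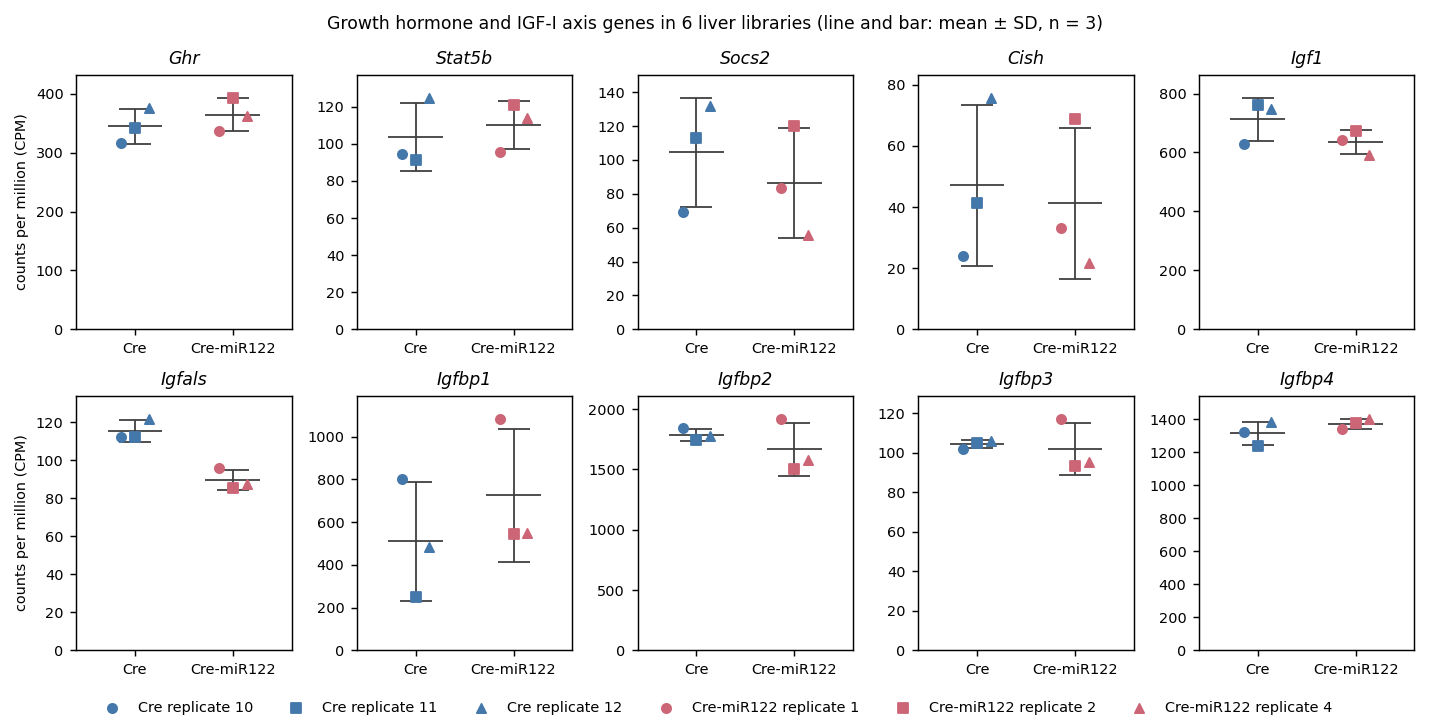
Level of each of the 10 genes in CPM (y axis, from 0) in the Cre and Cre-miR122 libraries (x axis), with points for libraries and lines and bars for mean ± SD (n = 3). The groups are separated for Igfals alone, and the points of Socs2, Cish and Igfbp1 spread widely within both groups.

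At the top of the pathway, the growth hormone receptor gene Ghr (chromosome 15, 3317755 to 3583352, GRCm38) was steady. It was at 317, 341 and 376 CPM in Cre replicates 10, 11 and 12 and at 337, 393 and 363 CPM in Cre-miR122 replicates 1, 2 and 4. The groups overlapped, and the log2 fold change was 0.080 (SE 0.098, edgeR adjusted p = 0.875). It was 0.023 without Cre replicate 10, its lowest library, 0.022 when Cre-miR122 replicate 2 was left out and 0.15 when Cre replicate 12 was. Stat5b (chromosome 11, 100780731 to 100859004), which encodes the main growth hormone-activated STAT of hepatocytes, was at 94.6, 91.6 and 125 CPM with Cre and at 95.8, 121 and 114 CPM with Cre-miR122. It was high in the same 3 libraries as Ghr, Cre replicate 12 and Cre-miR122 replicates 2 and 4, so that no separation by vector was seen. Its log2 fold change was 0.088 (SE 0.13, adjusted p = 0.901), with a range from 0.0050 with Cre replicate 11 left out to 0.24 with Cre replicate 12 left out, and 0.026 with Cre replicate 10 left out. Stat5b and its close paralog Stat5a are similar in sequence, with the treatment of reads matching both not given in the sources used here. Stat5a itself had a log2 fold change of -0.026, and Jak2, the receptor-bound kinase, one of 0.0010. Each of these 2 values changed sign when some single libraries were left out, with ranges of -0.12 to 0.13 and -0.048 to 0.077.

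The feedback inhibitor genes spread more within each group than their means differed between vectors. Socs2 (chromosome 10, 95383903 to 95417253), whose product dampens signalling from the growth hormone receptor, was at 69.0, 113 and 132 CPM with Cre and at 83.2, 120 and 55.8 CPM with Cre-miR122. Cish (chromosome 9, 107296659 to 107302784), the gene of the related inhibitor CIS, was at 24.1, 41.2 and 75.8 CPM with Cre and at 33.1, 68.7 and 21.6 CPM with Cre-miR122. Both genes were high in Cre replicates 11 and 12 and Cre-miR122 replicate 2 and low in Cre replicate 10 and Cre-miR122 replicates 1 and 4. The highest Cish level was 3.50 times the lowest, and the highest Socs2 level 2.36 times the lowest. The spread within groups on the log2 scale was 0.83 for Cish and 0.52 for Socs2, beside a median of 0.119 over the 8282 tested genes with a mean of at least 10 CPM. Of those genes 99.7% had a smaller spread than Cish and 99.1% a smaller spread than Socs2. The log2 fold change between vectors was -0.28 for Socs2 (SE 0.28, adjusted p = 0.850) and -0.19 for Cish (SE 0.45, adjusted p = 0.941). Without Cre replicate 10 these values were -0.50 and -0.51. Cish turned to 0.33 without Cre replicate 12 and to 0.12 without Cre-miR122 replicate 4, and Socs2 was at -0.041 without the latter library and -0.59 without Cre-miR122 replicate 2.

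Cish has 2 neighbouring matches to the STAT5 motif TTCNNNGAA at its annotated start, shown because Cish had the widest spread of the 10 genes and is a textbook STAT5 target. The motif reads the same on both strands. The stretch lies at chr9:107296654-107296683 on the plus strand of GRCm38.p6, from the RefSeq promoter table, with the matches in capitals and 2 bases between them.
Cish: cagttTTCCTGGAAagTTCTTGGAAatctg
The table held promoters, 250 bases before to 50 bases after a start, for 9 of the 10 genes. The motif was in those of 2, Cish and Igfals, in those of 8.62% of 10845 tested genes and in 8.3% of all 32851 promoters. A match is a description of letters and not of a bound site.

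Onecut1, the gene of the hepatocyte factor HNF6 and a known growth hormone-induced gene, had the same high and low libraries as Socs2 and Cish. It was at 2.48, 6.57 and 7.0 CPM with Cre and at 3.19, 10.9 and 2.52 CPM with Cre-miR122. The log2 fold change of 0.052 (SE 0.54) turned to -0.91 without Cre-miR122 replicate 2. Bcl6, a repressor that growth hormone lowers, had a mean of 22.6 ± 0.849 CPM in the Cre group against 18.8 ± 2.16 CPM in the other (SD, n = 3 each). By library it was at 23.5, 21.8 and 22.4 CPM with Cre and at 17.8, 17.3 and 21.2 CPM with Cre-miR122. Its groups did not overlap, with a log2 fold change of -0.26 (SE 0.099, unadjusted p = 0.0250, edgeR adjusted p = 0.816). The adjustment gave the value 0.816 to many genes, so it does not rank them.

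**Figure D2:**
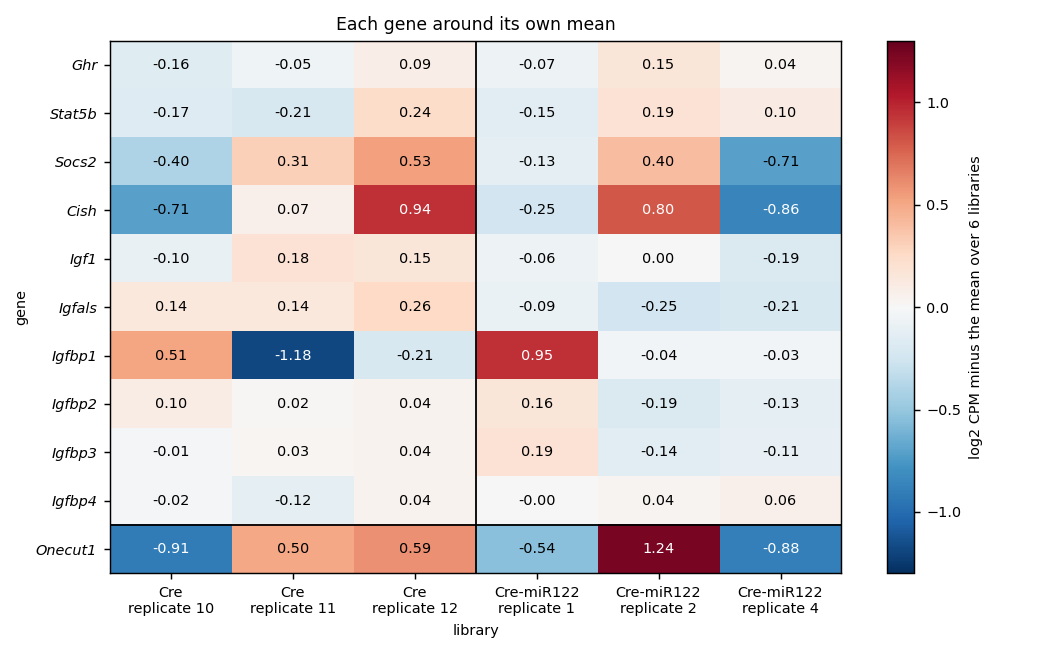
Log2 CPM of the 10 genes and Onecut1 (rows) in each library (columns), as the difference from the gene's own mean over 6 libraries, given by colour and number. Cish, Socs2 and Onecut1 are above their means in Cre replicates 11 and 12 and Cre-miR122 replicate 2, while Igfbp1 runs from -1.18 in Cre replicate 11 to 0.95 in Cre-miR122 replicate 1.

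Igf1 (chromosome 10, 87858265 to 87937047), the hormone gene at the output of the pathway, was at 628, 763 and 747 CPM with Cre and at 643, 673 and 590 CPM with Cre-miR122. Cre replicates 11 and 12 were the highest libraries, and Cre replicate 10 lay among the Cre-miR122 libraries, so the groups overlapped. The means were 712 ± 73.3 and 635 ± 41.9 CPM (SD, n = 3 each), with a log2 fold change of -0.17 (SE 0.10, edgeR adjusted p = 0.816). Without Cre replicate 10 it was -0.25 (unadjusted p = 0.0319, edgeR adjusted p = 0.848), and leaving out any other library gave -0.21 to -0.12. The swing seen in Cish was small here, the highest Igf1 level being 1.29 times the lowest. The 5 genes with the most similar course over the 6 libraries were BC024386, Dennd4b, Csf1, Mvb12a and Creld1. Their root-mean-square differences from Igf1 ran from 0.0152 to 0.0388 on the centred log2 scale, among 8281 genes with a mean of at least 10 CPM. The nearest of so many genes over 6 libraries are close by selection, and shared regulation was not tested.

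Igfals (chromosome 17, 24877652 to 24882011), the gene of the acid-labile subunit, was lower in each Cre-miR122 library than in any Cre library. It was at 112.1, 112.0 and 121.8 CPM with Cre and at 95.8, 85.6 and 87.6 CPM with Cre-miR122. The groups were apart, and the spread within them was small, 0.078 on the log2 scale. The means were 115 ± 5.61 and 89.7 ± 5.36 CPM (SD, n = 3 each), a log2 fold change of -0.36 (SE 0.081), or 1.29-fold lower. Its unadjusted p of 0.00139 was number 13 from the smallest among all genes tested, and its edgeR adjusted p over all of them was 0.816. By exact permutation (two-sided) p was 0.1, and 3 libraries against 3 can reach no smaller value. Leaving out single libraries gave -0.41 to -0.32, with -0.38 without Cre replicate 10, so no single library set the value. DESeq2 gave -0.36 (adjusted p = 0.662) and limma-voom -0.36 (adjusted p = 0.815), and the adjusted p over the 15 alternatives ran from 0.454 to 0.999.

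Igfals has 1 match to the STAT5 motif in each of 2 of its 3 promoter windows, shown because its level differed most clearly between the groups. In GRCm38.p6, on the plus strand, the first lies at chr17:24877598-24877626, with the match starting 236 bases before the annotated start. The second lies at chr17:24878163-24878191, with the match starting 58 bases before another annotated start. Capitals mark the matches.
Igfals, first window: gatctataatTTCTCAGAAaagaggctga
Igfals, second window: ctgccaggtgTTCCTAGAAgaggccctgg

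Igfbp3 (chromosome 11, 7206086 to 7214081) encodes the main circulating carrier of IGF-I and is made largely by non-parenchymal liver cells. It was at 102, 105 and 106 CPM with Cre and at 117, 93.4 and 95.6 CPM with Cre-miR122. The 3 Cre libraries lay between the Cre-miR122 libraries, and the log2 fold change was -0.032 (SE 0.098, adjusted p = 0.955). Its sign changed when Cre-miR122 replicate 2 (0.027) or Cre-miR122 replicate 4 (0.013) was left out, and it was -0.14 with Cre-miR122 replicate 1 left out. The marker lists of the cells around it were counted at an unadjusted edgeR p under 0.05, which 5.41% of all genes tested had. The counts were 1 of 10 sinusoidal endothelial genes (Lyve1, higher), 1 of 10 Kupffer cell genes (C1qb, lower) and 0 of 10 stellate cell genes. Log2 fold changes below 0 were found for 7, 8 and 7 of the 10 genes in that order, and for 7278 of all 14374 genes tested. The list medians were -0.036, -0.17 and -0.10, and they depended on single libraries. Without Cre replicate 10 they were 0.12, -0.20 and 0.0020, and the Kupffer cell median was -0.051 without Cre-miR122 replicate 1. The summed levels were 431 to 547 and 422 to 543 CPM for endothelial genes, 584 to 708 and 488 to 633 CPM for Kupffer cell genes, and 806 to 1092 and 865 to 1005 CPM for stellate cell genes, with Cre given first. The part of these cells in the level of Igfbp3 was not tested.

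Igfbp1 (chromosome 11, 7197787 to 7202546), the insulin-repressed binding protein gene, had the widest range of the axis. It was at 800, 247 and 483 CPM with Cre and at 1083, 545 and 547 CPM with Cre-miR122. Cre replicate 11 was lowest and Cre-miR122 replicate 1 highest, 4.38 times apart, with Cre replicate 10 above the other 2 Cre-miR122 libraries. The log2 fold change of 0.51 (SE 0.39, adjusted p = 0.821) depended on single libraries. Leaving out Cre-miR122 replicate 1 gave 0.098, leaving out Cre replicate 11 gave 0.175, and leaving out Cre replicate 10 gave 0.99 (unadjusted p = 0.0220, edgeR adjusted p = 0.848). Igfbp3 lies 3539 bases from Igfbp1 in opposite orientation, and its highest level was 1.26 times its lowest.

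Genes that insulin represses through FoxO1, or that belong to the same response, showed the extremes of Igfbp1 in the same libraries. Cre-miR122 replicate 1 was the highest library for 9 of 10 genes of this list, and Cre replicate 11 the lowest for 7 of 10. All 10 lay above 0 between the vectors, where 7096 of all 14374 genes tested did. Their median log2 fold change was 0.18 beside -0.0029 for all genes. That median was 0.052 without Cre-miR122 replicate 1 and 0.39 without Cre replicate 10. Cre-miR122 replicate 1 was also the lowest library for 9 of 10 Kupffer cell markers, and Cre replicate 11 the lowest for 6 of 10 hepatocyte markers; their part in these values was not tested. By edgeR 0 of this list were called, and 2 of 10 were higher at an unadjusted p under 0.05, Foxo3 and G6pc. Of all 14374 genes tested 397 were higher at such a p. G6pc, the glucose-6-phosphatase gene of gluconeogenesis, was at 560, 328 and 375 CPM with Cre and at 786, 699 and 502 CPM with Cre-miR122. Its groups overlapped, with 0.65 as log2 fold change (SE 0.21, edgeR adjusted p = 0.816). That value was 0.92 without Cre replicate 10 and 0.50 without Cre replicate 11. The transcription factor gene Foxo3 was at 27.2 ± 1.95 and 34.8 ± 3.75 CPM (log2 fold change 0.35, SE 0.10), and its groups did not overlap. Irs2, the insulin receptor substrate gene, was at 10.2, 4.99 and 19.8 CPM with Cre and at 22.9, 18.3 and 18.6 CPM with Cre-miR122. Its log2 fold change of 0.78 (SE 0.37) was 0.41 without Cre replicate 11 and 1.40 without Cre replicate 12. Trib1, a pseudokinase gene, was at 0.23 (SE 0.15) and at 0.086 without Cre replicate 11.

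Igfbp2 (chromosome 1, 72824480 to 72852474), a carrier gene that is high in fetal liver, was at 1843, 1740 and 1773 CPM with Cre. With Cre-miR122 it was at 1919, 1505 and 1574 CPM. Cre-miR122 replicate 1 was the highest of all libraries and the other 2 of its group the lowest, so the groups overlapped. The log2 fold change was -0.10 (SE 0.11, adjusted p = 0.861), and single libraries left out gave values from -0.21 (Cre-miR122 replicate 1) to -0.033 (Cre-miR122 replicate 2). Igfbp2 and Igfbp3 shared their highest library, Cre-miR122 replicate 1, and their lowest, Cre-miR122 replicate 2.

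Igfbp4 (chromosome 11, 99041260 to 99052646), whose product restrains IGF action locally, was the most even gene of the axis. It was at 1322, 1239 and 1381 CPM with Cre and at 1340, 1376 and 1401 CPM with Cre-miR122, the highest being 1.13 times the lowest. The log2 fold change was 0.063 (SE 0.090, adjusted p = 0.896), and single libraries left out gave values from 0.021 (Cre replicate 11) to 0.10 (Cre replicate 12). It alone among the 10 genes has the miR-122 seed match ACACTCC in its longest annotated 3′ UTR (GENCODE M21), where 9.27% of 12645 tested genes have one. The match begins at base 2559 of the 2816 bases of that UTR, at chr11:99054124-99054152 on the plus strand with its flanks. That is beyond the end of the gene in the deposited table, so reads over it were not counted to Igfbp4. It is shown because the vectors differ in miR-122 sites, with the match in capitals.
Igfbp4: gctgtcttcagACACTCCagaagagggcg

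**Figure D3:**
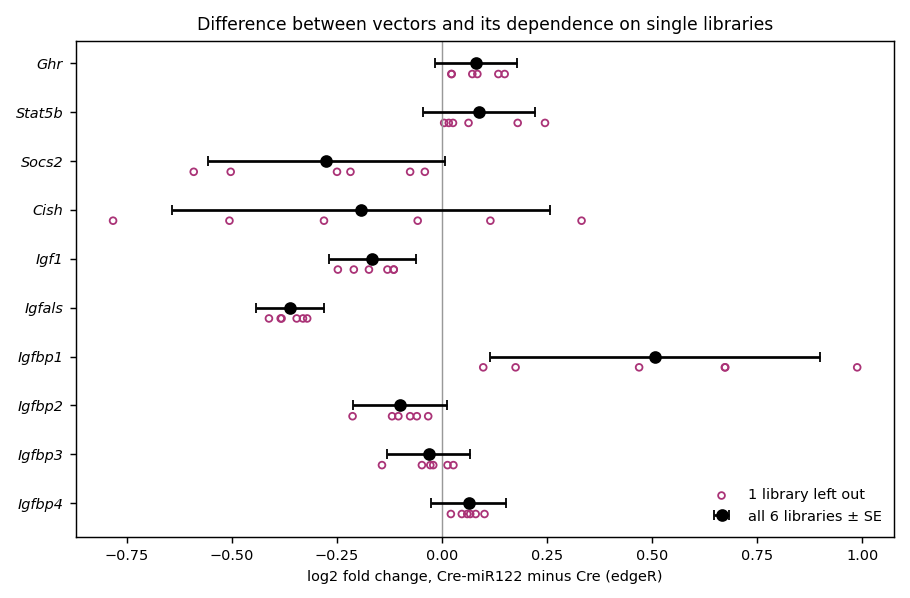
Log2 fold change of each gene, Cre-miR122 minus Cre (x axis), with its standard error (black) and the values with 1 library left out (open circles). Igfals stays between -0.41 and -0.32 in all 6 cases, while Cish runs from -0.78 to 0.33 and Igfbp1 from 0.098 to 0.99.

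Levels of different genes were compared per length, as CPM per kilobase of exon (RPKM) over all 6 libraries. Igfbp2 was highest at 1217 ± 112, followed by Igfbp4 at 649 ± 28.4 and Igfbp1 at 406 ± 190 (SD, n = 6). Igf1 at 78.8 ± 7.98 and Ghr at 78.5 ± 6.22 lay next to each other, then came Igfals at 43.0 ± 6.23 and Igfbp3 at 39.6 ± 3.27. Stat5b at 13.3 ± 1.83, Cish at 10.3 ± 5.35 and Socs2 at 8.07 ± 2.58 were the lowest. The library values overlapped between neighbours for Igfbp4 and Igfbp1, Igf1 and Ghr, Igfals and Igfbp3, Stat5b and Cish, and Cish and Socs2. The table's exon length covers all annotated exons, 11833 bases for Socs2 and 8547 for Igf1, so the level per length of a gene with many alternative exons is understated.

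**Figure D4:**
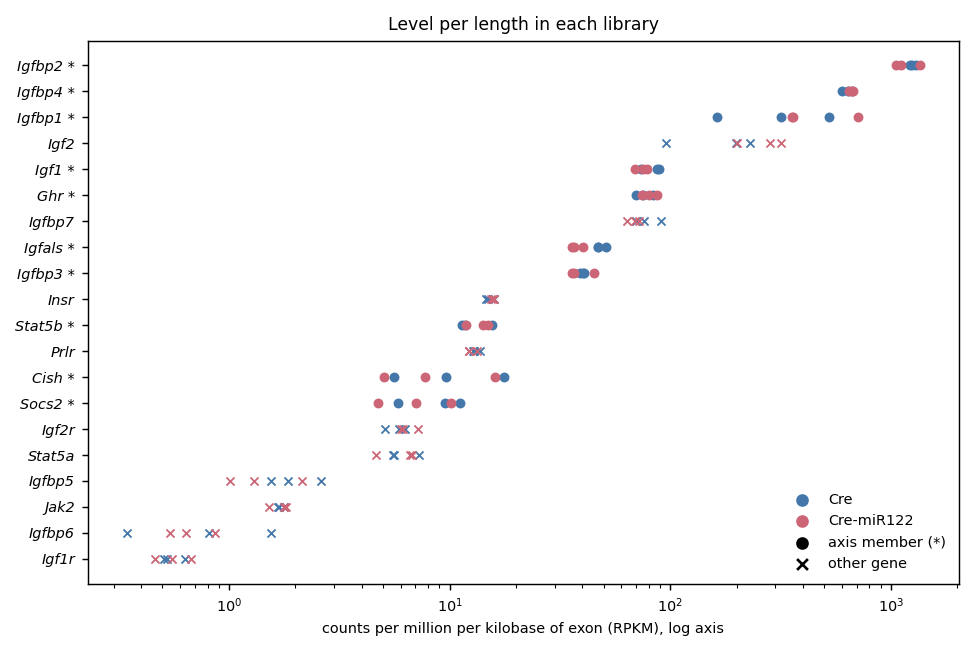
CPM per kilobase of exon in each library (x axis, log scale) for the 10 genes (dots, marked *) and related genes (crosses), ordered by mean and coloured by vector. Igfbp2, Igfbp4 and Igfbp1 lead the 10 genes, and Igf1r, the IGF-I receptor gene, is at the bottom at 0.558 on average.

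No gene of the wider IGF system passed the test either. The list held 18 further genes of ligands, receptors, their adaptors (among them Irs2, which the insulin and FoxO1 list also holds), binding proteins, proteases and their inhibitors, and RNA-binding proteins of Igf2. Of these 15 were tested, 9 above 0 and 6 below, with a median log2 fold change of 0.030. By edgeR 0 were called, and 0 had an unadjusted p under 0.05, where 5.41% of all genes tested had such a p. Igf2, the fetal IGF gene, exceeded Igf1 per length in every library, from 1.31 times in Cre replicate 10 to 4.21 times in Cre-miR122 replicate 1. It was at 479, 988 and 1145 CPM with Cre and at 1579, 1004 and 1421 CPM with Cre-miR122. The groups overlapped, with 0.62 as log2 fold change (SE 0.29, edgeR adjusted p = 0.816). Without Cre replicate 10, the lowest library, it was 0.32. Its exons share 98 bases with Igf2os on the other strand, with the strand setting of the counting not given in the sources used here. Igf1r had a mean of 7.04 ± 0.863 CPM in the Cre group against 7.13 ± 1.34 CPM in the other (log2 fold change 0.019, SE 0.17). Its sign changed with 3 of the 6 libraries left out in turn. The RNA-binding protein gene Igf2bp3 was at 0.29 (SE 0.14) and the endothelial binding protein gene Igfbp7 at -0.21 (SE 0.11), which was -0.098 without Cre replicate 10.

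Among 16 further genes of growth hormone receptor signalling 15 were tested, 7 above 0 and 8 below, with a median log2 fold change of -0.026. By edgeR 0 were called, while 2 were higher and 3 lower at an unadjusted p under 0.05, where 5.41% of all genes tested had such a p. Beside Bcl6 these included Stat3 (0.29, SE 0.12, and 0.18 without Cre-miR122 replicate 4), the phosphatase gene Ptpn11 (0.21, SE 0.087, and 0.14 without Cre-miR122 replicate 4) and another phosphatase gene, Ptpn6, the last of them lower. Stat3 encodes a STAT better known from interleukin-6 signalling, and Ptpn11 encodes SHP2.

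Liver genes known to follow the sex-specific pattern of growth hormone release had no called member either. Of 14 male-biased genes 10 were tested, with 4 above 0, 6 below and a median log2 fold change of -0.14, which ran from -0.28 without Cre replicate 12 to -0.046 without Cre-miR122 replicate 2. Of 20 female-biased genes 18 were tested, with 6 above 0, 12 below and a median of -0.069, which was -0.0020 without Cre replicate 12 and -0.13 without Cre replicate 10. By edgeR 0 genes of either list were called, and 1 male-biased gene (Cyp7b1) and 1 female-biased gene (A1bg) were lower at an unadjusted p under 0.05. Of all genes tested 2.65% were lower at such a p. Cyp7b1, a bile acid enzyme gene, had a mean of 1.98 ± 0.496 CPM in the Cre group against 1.34 ± 0.169 CPM in the other. The log2 fold change was -0.57 (SE 0.25), and -0.36 without Cre replicate 11, from only 24 to 54 counts per library. A1bg was at 1.41 ± 0.456 and 0.620 ± 0.118 CPM (log2 fold change -1.18, SE 0.33), from only 10 to 35 counts per library. That value was -1.42 without Cre replicate 10 and -0.999 without Cre replicate 12.

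Cre replicate 10, the library with Y-linked counts, was the highest library for 2 of the 10 tested male-biased genes and the lowest for 1. It was the lowest library for 5 of the 18 tested female-biased genes and the highest for 2, while Cre-miR122 replicate 2 was the lowest for 6. The summed level of the male-biased list was highest in Cre replicate 10, at 979 CPM, and ran from 658 to 887 CPM in the others. That of the female-biased list was lowest there, at 2488 CPM, and ran from 2751 to 3264 CPM in the others. Such sums follow the most abundant genes of a list. By single genes Cre replicate 10 had 1 count of Cyp4a12a and 8 counts of Mup20, while the other libraries had at most 1 and from 6 to 11. The steroid enzyme gene Hsd3b5 was at 1.24 CPM there and at 0.581 to 1.31 CPM elsewhere. Of the female-biased genes, Cyp2b9, a cytochrome P450 gene, was at 284.5 CPM in Cre replicate 10 and at 265 to 382 CPM in the others. Female-biased Cux2, which encodes a transcription factor, was at 38.3 CPM in Cre replicate 10 and ran from 19.2 to 94.0 CPM in the others. The 5 female-biased genes lowest there were Sult2a1, Sult2a2, Cyp3a16, Cyp3a44 and Cyp3a41a, and the 2 highest there were Cyp2a4 and Cyp17a1. In Cre replicate 10 Sult2a1 was at 782 CPM, against 926 to 1093 CPM in the others. Cyp3a16 was at 272 CPM there against 341 to 487 CPM, and Cyp17a1 at 18.5 CPM against 5.08 to 17.1 CPM.

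**Figure D5:**
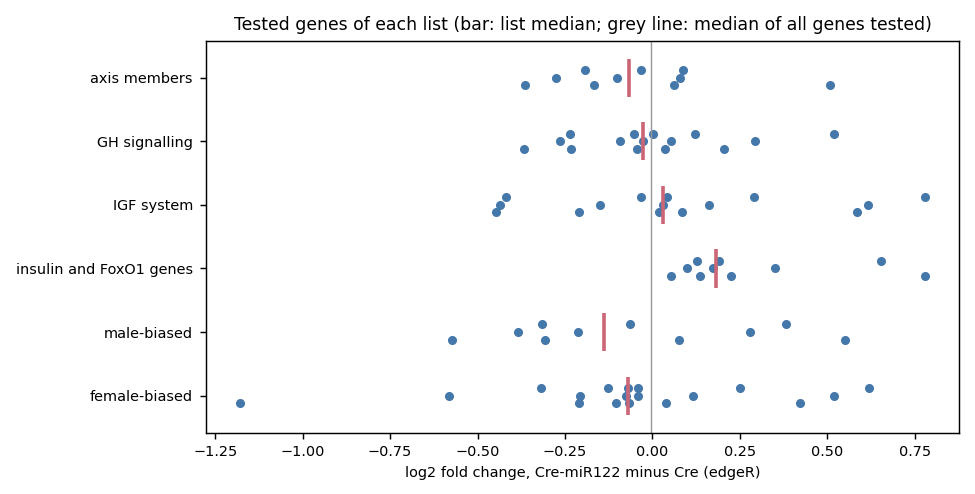
Log2 fold change, Cre-miR122 minus Cre (x axis), of every tested gene of the axis and of 5 related lists (rows), with the median of each list as a bar and that of all genes tested as a grey line. The list of insulin and FoxO1 genes lies above 0 throughout, and the other lists spread to both sides.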

How the data were processed

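RNA of 6 mouse liver libraries was sequenced. The authors deposited raw read counts per gene. The submitters' processing notes name GRCm38 (mm10), STAR 2.7.9a and featureCounts 2.0.1, and the deposited table also gives each gene's exon length in bases. It has 5 further count columns with no matching sample, which were left out. Group and replicate numbers came from the titles. Counts were tested with edgeR 4.0.16 (R 4.3.3) by the quasi-likelihood F test, with TMM scaling, filterByExpr, group as the only term, two-sided, and Benjamini-Hochberg adjustment over 14374 genes. Standard errors came from the F statistic. CPM and RPKM used TMM-scaled library sizes. The common biological coefficient of variation was 11.8%. The fit was tested on simulated data.

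The 10 genes and all lists were chosen with earlier results of these data known, so no list was tested as a set. Named genes were the 10, up to 4 per list with the smallest p, a fixed set (Igf2, Igf1r, Jak2, Stat5a, Onecut1, Bcl6, Cre, Xist, Ddx3y) and the 5 most similar to Igf1. Picked after their values were seen were Ptpn6, Cux2, Cyp4a12a, Mup20, Hsd3b5, Cyp2b9, Sult2a1, Sult2a2, Cyp3a16 and Cyp17a1. One gene that this rule names is not reported here. Alternatives were other scalings and filters, DESeq2 1.42.0, limma-voom (limma 3.58.1), robust dispersion, leaving out the 10 most abundant genes, and leaving out each library. Promoter sequences and motifs came from RefSeq (GRCm38.p6), and 3′ UTRs of at least 50 bases from protein-coding transcripts of GENCODE M21. Cholangiocyte and erythroid lists gave medians of -0.048 and 0.10, with 0 and 1 gene (Epor, lower) at an unadjusted p under 0.05, beside 5.41% of all genes tested. Both medians changed sign with single libraries left out, to 0.068 without Cre replicate 11 or Cre-miR122 replicate 4 for the former and to -0.23 without Cre replicate 10 for the latter, which was 0.42 without Cre replicate 12.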

Additional observations from a re-analysis of the deposited data

How the results depend on the processing

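None of the 10 genes was called under any of the 15 alternatives. Over all genes, edgeR called 0, DESeq2 3 and edgeR without a filter 2. The count at an unadjusted p under 0.05 was 778, ran from 425 to 1535 with single libraries left out, and was 1169 without a filter, which tests more genes. Among the 10 genes that count was 1 and ran from 1 to 3, the latter without Cre replicate 10 (Igf1, Igfals and Igfbp1). Over all genes the fit without Cre replicate 10 had 821 at such a p. Cish, which ran from -0.78 to 0.33, changed sign to 0.33 when Cre replicate 12 was left out and to 0.12 when Cre-miR122 replicate 4 was. Igfbp3, from -0.14 to 0.027, did so at 0.027 without Cre-miR122 replicate 2 and at 0.013 without Cre-miR122 replicate 4. The cause was not tested. The 8 other genes kept their sign in all 15. With single libraries left out, the median of growth hormone signalling genes ran from -0.072 to 0.030 and that of male-biased genes from -0.28 to -0.046. Of 179 list medians under alternatives 174 moved by less than 1 SD between libraries. That SD was each list's own, so a list with a wide spread could change sign and still be counted. Such changes occurred in the sinusoidal, stellate, cholangiocyte, erythroid and heart lists. The heart median, from 1 tested gene in the main fit and with an SD of 1.04, ran from -0.56 to 0.39. The heart list had no tested gene at a CPM of at least 1 in 3 libraries. No paired analysis was possible because the groups share no replicate number.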

Other observations

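Ratios of transcript levels per length within each library were also computed for 7 pairs of genes of the axis and Igf2, chosen after the values were seen. Igfals over Igfbp3 was 1.20, 1.16 and 1.26 in the Cre libraries, while the Cre-miR122 libraries had 0.892, 1.002 and 1.002, so the groups did not overlap. By exact permutation (two-sided) p was 0.1, below which 3 libraries against 3 cannot go, and 0.56 after Benjamini-Hochberg adjustment over the 7 ratios computed. This ratio reuses the Igfals values given above, so it is no separate support for them, and the adjustment does not cover the choice of pairs. The other 6 ratios overlapped between the groups, among them Igfals over Igf1 (exact p = 0.3), Igfbp3 over Igf1 (exact p = 0.5) and Igf2 over Igf1 (exact p = 0.2). Cish over Socs2 ran from 0.964 to 1.59 over the 6 libraries, a narrower range than that of either gene.

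Of 8 erythroid genes 5 lay above 0 and 3 below, with a median log2 fold change of 0.10 that was -0.23 without Cre replicate 10, the lowest library for 7 of the 8. One of them, Epor, had an unadjusted p under 0.05, where 5.41% of all genes tested had such a p. Epor, the erythropoietin receptor gene and a user of JAK2 and STAT5 like the growth hormone receptor, had a mean of 4.09 ± 0.603 CPM in the Cre group against 2.54 ± 0.184 CPM in the other (SD, n = 3 each). Its groups did not overlap, and the log2 fold change was -0.69 (SE 0.17, unadjusted p = 0.00303, edgeR adjusted p = 0.816). That value was -0.57 without Cre replicate 10 and -0.78 without Cre replicate 12.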
